A study of Mus musculus with 2 samples.

Results

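Calmodulin, the CaM kinases, neurogranin and calcineurin form the core of calcium signalling at excitatory synapses, and 8 of their genes were described here in mouse hippocampus: Calm2, Nrgn, Camk2a, Camk2b, Camk2d, Camk2g, Camk4 and Ppp3ca. They were read by all probes for mouse transcripts, on both arrays, whose RefSeq accession belongs to one of the 8 gene symbols. This gave 13 probes among 41171, each printed as 1 spot per array. All 13 were well above background, by the scanner's flag, for both RNAs on both arrays, so all 8 genes are among the 23603 genes and transcripts measured. Male C57BL/6J mice, 11 weeks old and weighing 26 to 28 g at the start, were acclimatized for 1 week. For 4 weeks they then ate powdered chow holding 0.5% (w/w) of a powder with 2% astaxanthin, a red carotenoid of the alga Haematococcus pluvialis (the ASX group), or the same chow with 0% of that powder and a placebo powder instead (the control group). Hippocampal total RNA of the ASX and control groups was hybridised together on 2 two-colour Agilent arrays. Each array is titled with 4 mice, and no label says how their RNA was combined. On array 1 Cy5 labelled the ASX RNA and Cy3 the control RNA, and array 2 had the dyes exchanged. The 2 arrays were counted as a technical dye swap, that is as 1 replicate, so no test of the diet was possible and the number of arrays limits the precision.

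Calmodulin is a small calcium sensor that changes shape when calcium enters a neuron and then switches on or off the enzymes it binds. Neurogranin holds calmodulin near the postsynaptic membrane at low calcium and lets it go when calcium rises. Calcium-bound calmodulin activates CaMKII, a multi-subunit kinase needed for long-term potentiation in the hippocampus, and CaMKIV, a kinase of the nucleus that phosphorylates CREB, as well as calcineurin, the phosphatase that opposes the kinases and is needed for long-term depression. Forebrain excitatory neurons hold very large amounts of CaMKII and neurogranin.

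None of the 8 genes differed between the diets by the size rule, and their largest ratios turned with the dye. The rule called a gene higher or lower where both arrays gave a ratio of 1.5-fold or more, with the same diet on top, at its brightest probe. Of the 8 genes, 0 were higher and 0 lower by this rule, where 15 of all genes and transcripts (0.0636%) were higher and 5 (0.0212%) lower. With shares this small, a count of 0 among 8 genes says little about them. In the dye direction, where the ratio turns round when the dyes are exchanged, 1 of the 8 was at least 1.5-fold apart on each array, against 31 of all genes and transcripts (0.131%). That gene was Nrgn, with a brightness (mean log2 intensity over both dyes and arrays) of 17.06. Of the 13 genes and transcripts with a brightness above 17, Nrgn among them, 84.6% met the rule in the dye direction. At a brightness of 16 to 17, 4.05% of 148 did. At the brightest probes, the mean log2 ratios of ASX over control RNA lay between -0.24 for Camk2d and 0.17 for Nrgn, with a median of 0.08 over the 8 genes and 0.00 over all genes and transcripts. On array 1 the median of the 8 was 0.14 and on array 2 it was -0.09, so the arrays differed in sign. After loess, only Camk2a of the 8 was above 0 on both arrays, as 22.2% of all genes and transcripts were. Camk2d and Camk4 were below 0 on both, as 23% of all were. The other 5 had opposite signs on the arrays, as 54.8% of all had. Of genes with a symbol, as the 8 are, 14.3% were above 0 on both arrays and 26.4% below. Opposite signs were more frequent among bright genes and transcripts, at 137 of 148 with a brightness of 16 to 17 and all 13 above 17. The signs of the 8 genes depend on the scaling. By the processed intensities of the scanner software, Camk2a had opposite signs and Camk2b was the only gene of the 8 higher in ASX on both arrays. Array by array, the size rule was met by Nrgn and Calm2, both higher in ASX, on array 1 alone, and by Nrgn, lower in ASX, on array 2 alone.

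**Figure D1:**
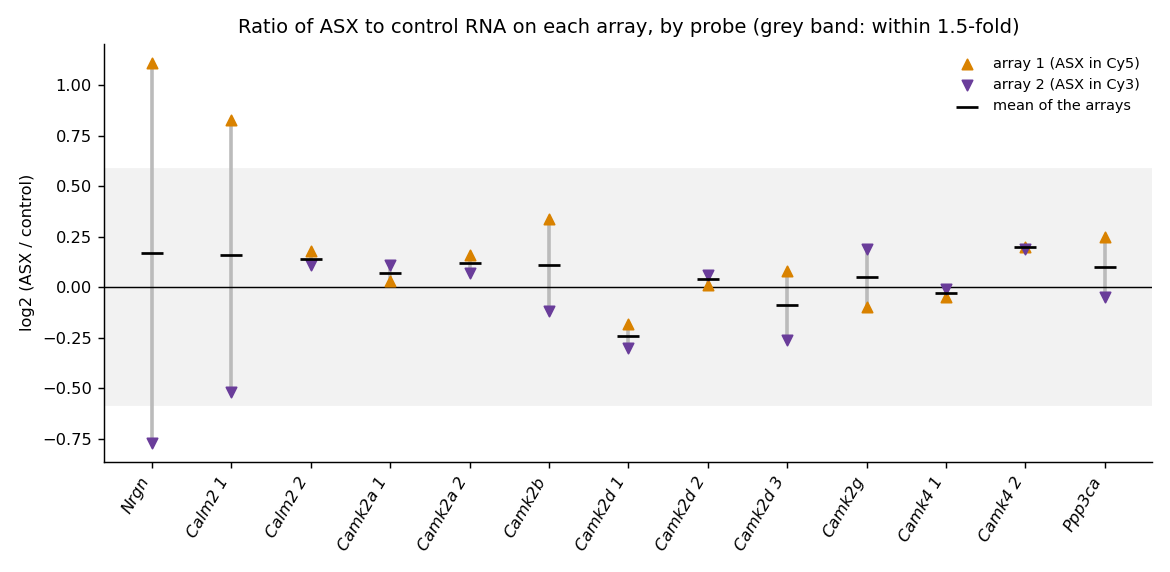
Log2 ratio of ASX over control RNA (y axis) for the 13 probes of the 8 genes (x axis; probes of a gene numbered from the brightest), on array 1 (ASX in Cy5, upward triangles) and array 2 (ASX in Cy3, downward triangles), with the mean as a bar. The grey lines join the arrays of 1 RNA pair and are no error bars. Nrgn and the brightest Calm2 probe leave the 1.5-fold band on array 1, at 1.11 and 0.83, and Nrgn leaves it on the other side on array 2, at -0.77.

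Calm2 encodes calmodulin, a protein made from more than one gene. At its brightest probe the processed intensity, which the scanner software had background-subtracted and dye-normalized, was 115671 for ASX and 80467 for control RNA on array 1, and 79261 for ASX and 94783 for control RNA on array 2. Whichever RNA carried Cy5 was thus the brighter one. After loess normalization the log2 ratios of ASX over control were 0.83 and -0.52, a mean of 0.16 (1.11-fold; technical SD 0.954 between the 2 arrays), and the dye part was 0.67, that is 1.6-fold more Cy5 than Cy3. That dye part was 0.39 with the scanner software's log ratios and 1.08 with median centring. The dye part is the mean over both arrays of the log2 ratio of Cy5 over Cy3, and it is contained in the technical SD. The second Calm2 probe, for the same transcript accession, had 42450 for ASX and 42104 for control RNA on array 1, and 41212 for ASX and 34968 for control RNA on array 2. Its log2 ratios were 0.18 and 0.11, both above 0, with a mean of 0.14 (technical SD 0.0494) and a dye part of 0.03. After loess, both probes of the gene hence gave nearly the same diet ratio, 0.02 apart, and dye parts that were 0.64 apart.

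Such a gap between probes was uncommon on these arrays. Among 4549 genes with at least 2 measured probes, the dye parts of the brightest and the next probe were a median of 0.09 apart (95th percentile 0.29), and 99.8% of these genes had a smaller gap than Calm2. Across these genes, which are not independent replicates, the dye parts of both probes correlated at a Pearson r of 0.18 and the diet means at 0.43. The comparison did not match probes for brightness. Within 0.5 log2 units of brightness, the median dye part of other probes was 0.44 around the brightest Calm2 probe and 0.11 around the second. The part of brightness in the Calm2 gap was not tested. The probe sequences are not given in the sources used here, so nothing can be said of how the Calm2 probes differ in base composition or in matching other calmodulin genes.

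Nrgn encodes neurogranin and was read by 1 probe. Its processed intensity was 121933 for ASX and 71645 for control RNA on array 1, and 79547 for ASX and 109218 for control RNA on array 2. The RNA in Cy5 was the brighter one each time, so the array 1 values alone would read as higher in ASX and the array 2 values alone as lower. Its log2 ratios of ASX over control were 1.11 and -0.77, with a mean of 0.17 (1.12-fold; technical SD 1.32) and a dye part of 0.94, or 1.91-fold more Cy5 than Cy3. Nrgn was the member with the largest dye part. With the scanner software's own log ratios the dye part was 0.61 and Nrgn no longer met the size rule in the dye direction. Over all settings with both arrays the mean diet ratio ran from -0.09 to 0.24.

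**Figure D2:**
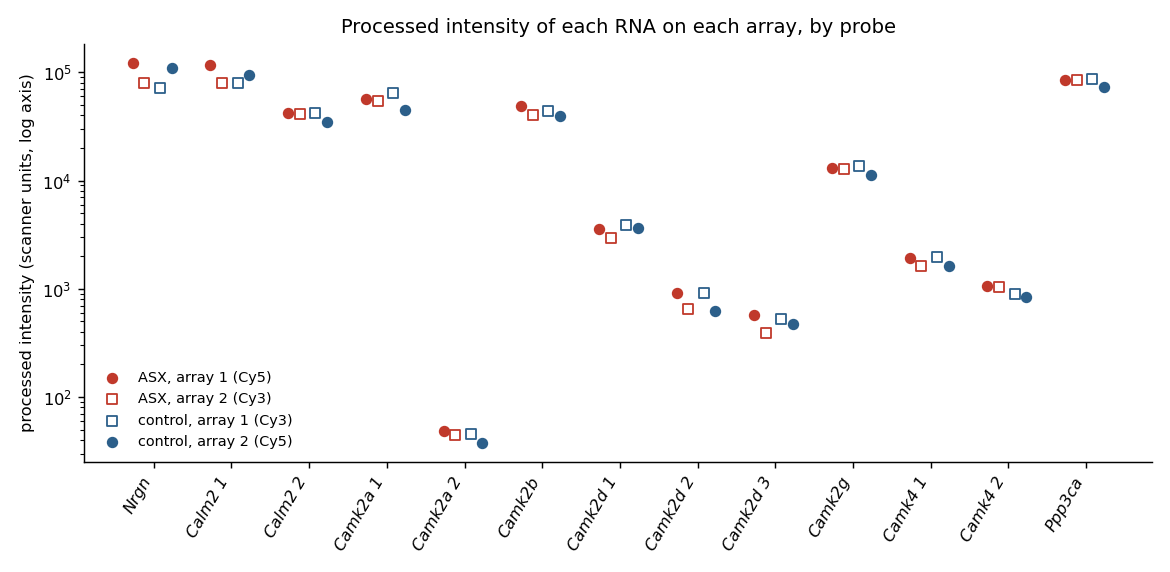
Processed intensity on a log axis (y) of the ASX RNA (red) and the control RNA (blue) on each array, for the 13 probes of the 8 genes (x), with filled circles for Cy5 and open squares for Cy3. For Nrgn and the brightest Calm2 probe the 2 filled circles lie above the 2 open squares, whichever RNA carried Cy5. Intensities of different probes are not comparable as RNA levels.

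The 4 CaMKII genes encode subunits of the same holoenzyme; Camk2a and Camk2b are the main forms of forebrain neurons, while Camk2d and Camk2g are made in many tissues. At the brighter Camk2a probe, on transcript NM_177407, the processed intensity was 57080.1 for ASX and 64890 for control RNA on array 1, and 54403 for ASX and 44645 for control RNA on array 2. The scanner's scaling put ASX below control on array 1 and above it on array 2. After loess the log2 ratios were 0.03 and 0.11, a mean of 0.07 (1.05-fold; technical SD 0.0525), with a dye part of -0.04. A second Camk2a probe, on transcript NM_009792, was 627 times dimmer and had log2 ratios of 0.16 and 0.07, again above 0 on both arrays. Its processed intensities were only 48.2 for ASX and 45.3 for control RNA on array 1, and 44.5 for ASX and 37.8 for control RNA on array 2. The 2 Camk2a probes gave means 0.04 apart despite this gap in brightness.

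Camk2b had processed intensities of 49116 for ASX and 43578 for control RNA on array 1, and 39936 for ASX and 39188 for control RNA on array 2. Its log2 ratios after loess were 0.34 and -0.12, on opposite sides of 0, with a mean of 0.11 (1.08-fold; technical SD 0.325) and a dye part of 0.23. By the processed intensities, in contrast, ASX was the higher RNA on both arrays (ratios 1.13 and 1.02). The Camk2b dye part was 0.07 with the scanner software's log ratios and 0.54 with median centring. Camk2g had 12992 for ASX and 13748 for control RNA on array 1, and 12724 for ASX and 11255 for control RNA on array 2. Its log2 ratios of -0.10 and 0.19 averaged 0.05 (1.03-fold; technical SD 0.207), with a dye part of -0.15 after loess and 0.03 with median centring.

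Camk2d had the lowest diet ratio of the 8 genes, and its 3 probes did not give the same answer. At the brightest probe the processed intensity was 3545 for ASX and 3862 for control RNA on array 1, and 2919 for ASX and 3621 for control RNA on array 2. The ASX RNA was lower on both arrays, with log2 ratios of -0.18 and -0.30, a mean of -0.24 (0.848-fold; technical SD 0.0869) and a dye part of 0.06. The second probe had log2 ratios of 0.01 and 0.06, with a mean of 0.04, and the third had 0.08 and -0.26, with a mean of -0.09. All 3 carry the same transcript accession, and their means spread over 0.28. The mean over the 3 probes was -0.10, and Camk2d was below 0 in each of the 8 other settings with both arrays, with a range of -0.44 to -0.10.

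Camk4 encodes CaMKIV. At its brightest probe the processed intensity was 1926 for ASX and 1968 for control RNA on array 1, and 1634 for ASX and 1638 for control RNA on array 2, a difference of a few percent at most. The log2 ratios were -0.05 and -0.01, with a mean of -0.03 (0.979-fold; technical SD 0.0316). The second probe for the same transcript had 1051 for ASX and 893 for control RNA on array 1, and 1036 for ASX and 835 for control RNA on array 2. Here the ASX RNA was higher on both arrays by nearly the same amount, with log2 ratios of 0.20 and 0.19 and a mean of 0.20 (1.15-fold; technical SD 0.00856), the largest mean among the 13 probes. The choice of probe therefore decides the sign for Camk4: the mean over both probes was 0.08, against -0.03 for the brightest.

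Ppp3ca encodes the alpha form of the catalytic subunit of calcineurin. Its processed intensity was 85007 for ASX and 87363 for control RNA on array 1, and 84112 for ASX and 72939 for control RNA on array 2. After loess the log2 ratios were 0.25 and -0.05, with a mean of 0.10 (1.07-fold; technical SD 0.216) and a dye part of 0.15. The processed intensities gave the opposite order on each array, with ASX over control ratios of 0.973 and 1.15. The direction of the dye part turned with the scaling, at -0.12 with the scanner software's log ratios and 0.53 with median centring.

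After loess, the 2 members with the largest dye parts were also the brightest, brightness being the mean log2 intensity over both dyes and arrays. Of the 8 genes, 4 (Nrgn, Calm2, Ppp3ca and Camk2a) had a brightness above 16, as 0.682% of all genes and transcripts had, and 6 were above 14, as 5.11% of all were. Nrgn ranked 13 and the brightest Calm2 probe 22 among the 30078 probes past the background filter, and none of the 13 probes was saturated. Of the 148 genes and transcripts with a brightness of 16 to 17, 89.9% were brighter in Cy5 on both arrays, against 27.2% of all, and all 13 above 17 were. The 56 probes within 0.5 log2 units of the brightness of Nrgn had a median dye part of 0.53 (5th to 95th percentile 0.21 to 1.03), and 52 of them had a lower one than Nrgn. Those 82 around the brightest Calm2 probe had a median of 0.44 (0.17 to 0.93). Camk2a and Ppp3ca stood low among probes as bright as they are: the medians there were 0.25 and 0.36, against their own dye parts of -0.04 and 0.15. The sign for Camk2a turned with the scaling. Its dye part was -0.24 with the scanner software's log ratios and 0.31 with median centring, beside band medians of 0.05 and 0.58. The 31 genes that met the size rule in the dye direction were all brighter in Cy5, and 17 of them had a brightness above 16. The other 14 were dim: they were among the 13880 with a brightness below 10, of which 0.101% met the rule.

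**Figure D3:**
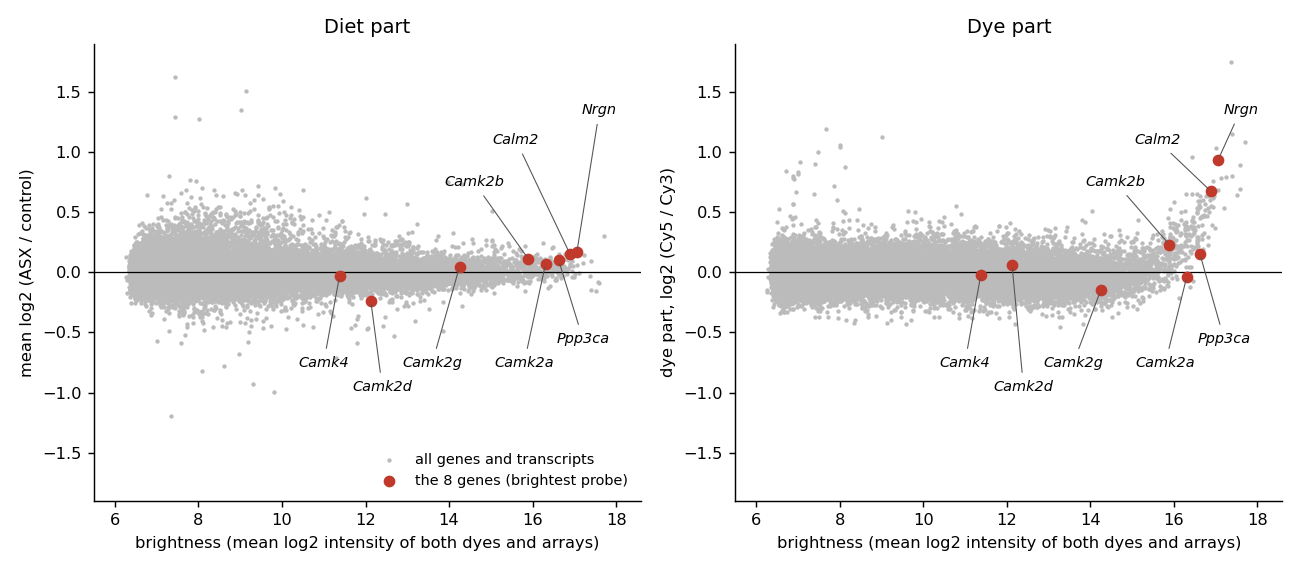
Mean log2 ratio of ASX over control RNA (left) and dye part, log2 of Cy5 over Cy3 (right), against brightness in log2 intensity, for all 23603 genes and transcripts (grey) and the 8 genes (red). The dye part climbs above a brightness of 16, where Nrgn (0.94) and Calm2 (0.67) lie, while the diet means of the 8 genes stay between -0.24 and 0.17.

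The genes most like Nrgn over the 2 arrays, by Euclidean distance between their log2 ratios, were bright ones too. Selenow, which encodes selenoprotein W, had 1.08 and -0.83 (distance 0.0641). Fth1, the gene of the ferritin heavy chain, had 0.94 and -0.64 (distance 0.205), and Aldoa, the gene of a glycolytic aldolase, had 0.90 and -0.71 (distance 0.214). Their brightness was 16.43, 17.24 and 17.40, beside 17.06 for Nrgn.

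Median centring moved the diet ratios of all 8 genes down. Among the dimmer members, Camk2d went from -0.24 to -0.44 and Camk4 from -0.03 to -0.22. Centring each array on its median in place of loess put all 8 genes below 0, with Nrgn at -0.09, Calm2 at -0.09 and Ppp3ca at -0.15, and moved the median of all genes and transcripts to -0.104. Relative to that median, 2 of the 8 were higher under this scaling, against 6 of 8 after loess. The sign of the mean diet ratio thus turned with this scaling for Nrgn, Calm2, Camk2a, Camk2b, Camk2g and Ppp3ca. Among all genes and transcripts the share of calls that were higher in ASX was 75% after loess (15 higher, 5 lower), 85.5% from the log ratios of the scanner (71 higher, 12 lower) and 50% when arrays were centred on their median (12 higher, 12 lower). Loess and median centring, applied to the same background-corrected intensities, differ by a curve in brightness. The scanner software also corrected the background in its own way, and the cause of the different counts was not tested. Values were therefore also set, by a choice made after seeing the data, against probes of like brightness, within 0.5 log2 units. This removes such a curve only in part where a band is not balanced around its probe. Nrgn and the brightest Calm2 probe ranked 13 and 22 among the 30078 probes, so most probes of their bands were dimmer than they are. Nrgn lay 0.13 above the median of its band after loess and 0.11 above with median centring, higher than all 56 probes of the band in both. This place depends on the edges of the band. After loess, the highest mean was 0.25 among genes and transcripts of brightness 16 to 17 and 0.31 above 17, beside 0.17 for Nrgn. The Nrgn mean also averages 1.11 and -0.77, with a technical SD of 1.32. Calm2 lay 0.12 above its band median in both, higher than 79 of 82 probes. Camk2d lay 0.23 below its band median in both, with 13 of 2515 probes lower. This holds for its brightest probe alone: the other Camk2d probes, from brighter to dimmer, had 68.4% and 17.3% of their own bands below them after loess. The second Camk4 probe had 96.1% of its band below it, against 38.9% for the brightest. Over 6 scalings the differences from the band median ran from 0.11 to 0.14 for Nrgn and from -0.23 to -0.21 for Camk2d, and those of Camk4 at its brightest probe stayed between -0.02 and -0.01. Subtracting a band median takes out most of a change in scaling by construction, so these narrow ranges do not show that the values are stable. These places in a band describe these arrays, and no test of the diet goes with them.

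**Figure D4:**
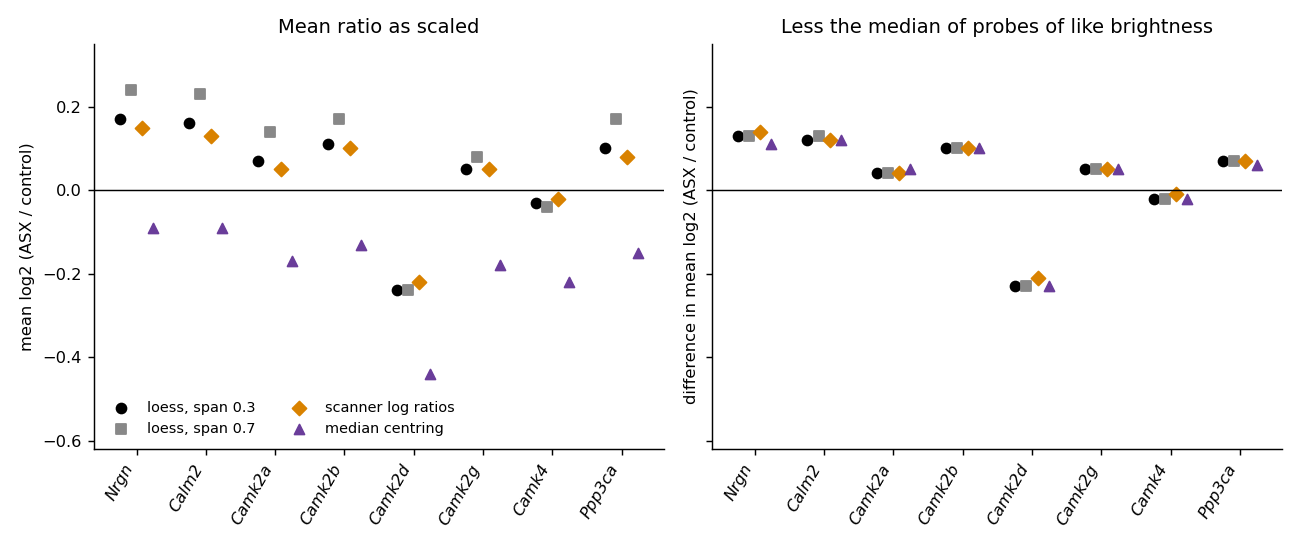
Mean log2 ratio of ASX over control RNA of the brightest probe of each of the 8 genes (left) and the same less the median of probes within 0.5 log2 units of brightness (right), under 4 scalings marked by symbol. On the left, median centring puts all 8 genes below 0. On the right the 4 scalings nearly coincide, with Nrgn at 0.11 to 0.14 and Camk2d at -0.23 to -0.21. Subtracting a band median takes out most of a change in scaling by construction.

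Of 56 other genes listed for the pathway, 48 were measured, and 0 were higher, 0 lower and 0 apart in the dye direction. Beside the shares of 0.0636%, 0.0212% and 0.131% over all genes and transcripts, these counts say little about the lists. Their median log2 ratio was -0.02, as over the 13318 measured genes with a symbol. On both arrays 6 were above 0 and 16 below, beside 14.3% above and 26.4% below of the genes with a symbol. Median centring moved their median to -0.19. Among calmodulin genes, Calml4, which encodes a calmodulin-like protein, had -0.40 and -0.21, the lowest mean of the 48 at -0.31.

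The CaM kinase cascade (9 of 9 measured, median -0.03) held the death-associated kinase gene Dapk1 at 0.08 and Camk1 at -0.07 as its largest means. Of its 9 genes, 0 were above 0 on both arrays and 4 below, a count too small to set against the shares of 14.3% and 26.4%. Among CaMKII inhibitors and partners, 3 of 7 genes were measured: Dlg4, which encodes the scaffold PSD-95, had -0.26 and -0.14 with a mean of -0.20, Syn1, the gene of the vesicle protein synapsin I, had a mean of 0.06, and Camk2n1, the gene of a CaMKII inhibitor and the last of the 3, had a mean of 0.00. Calcineurin subunits and regulators (8 of 9 measured) had a median of 0.03, with the regulatory subunit gene Ppp3r2 at 0.10 and Cabin1, the gene of a calcineurin-binding protein, at 0.07. Ppp3r2 was dim, with a brightness of 7.92, and its second probe did not pass the background filter. The dimmer Cabin1 probes had means of 0.00 and 0.04. Ppp3r1, the gene of the regulatory subunit of brain calcineurin, singled out after its values were seen, was another gene whose probes disagreed. Its brightest probe had a mean of 0.02, while 2 dimmer probes had 0.40 and 0.20, and 0.40 and 0.11, on the arrays, with means of 0.30 and 0.26.

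The small calmodulin-binding proteins Pcp4 and Gap43, relatives of neurogranin in that each binds calmodulin through an IQ motif, both had means of -0.07 (2 of 3 measured). Calmodulin-dependent enzymes (10 of 10 measured, median -0.04) had their largest means at the phosphodiesterase gene Pde1c, with -0.27 and -0.14 and a mean of -0.20 at its brightest probe but -0.10 and 0.03 at its other 2 probes, and at Nos1, the neuronal nitric oxide synthase gene, with -0.21 and -0.10 and a mean of -0.16. Nuclear targets (13 of 14 measured, median -0.03) had theirs at Crtc3, a CREB coactivator gene, with 0.25 and 0.22, and Mef2a, a transcription factor gene, with 0.30 and 0.15. Both had a mean of 0.23, and another Mef2a probe had 0.10 and 0.31. Creb1, singled out after its values were seen because CaMKIV phosphorylates its product, had a mean of 0.00 at its brightest probe. Its 2 dimmer probes had means of 0.31 and -0.13, on opposite sides of 0.

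**Figure D5:**
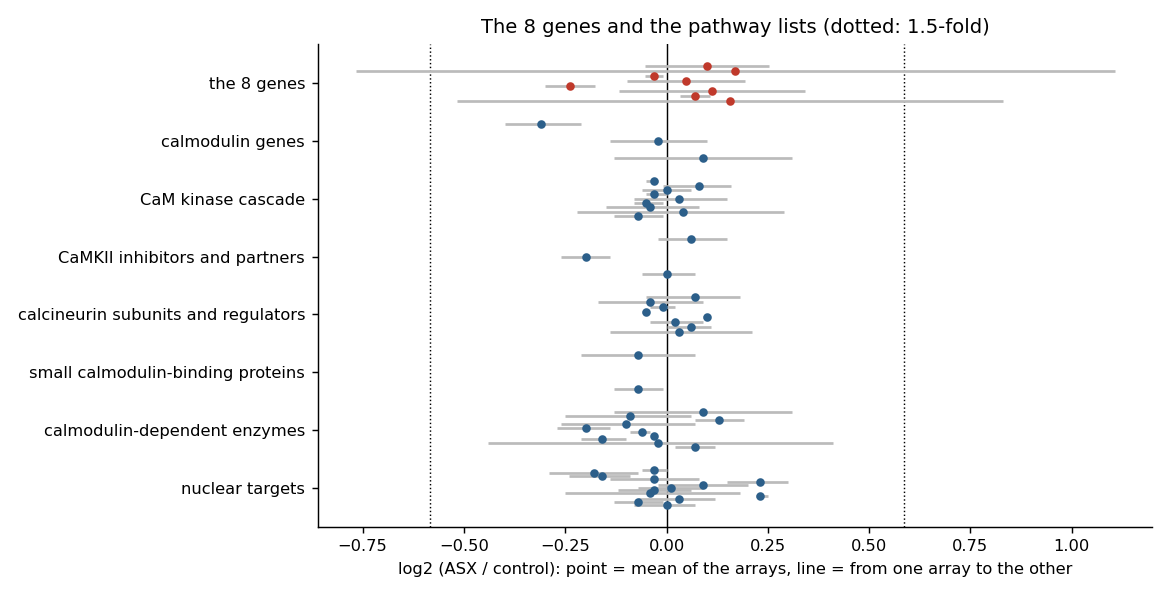
Log2 ratio of ASX over control RNA (x axis) for the 8 genes (red) and the 48 measured genes of the pathway lists (blue), with the mean of the arrays as a point and a line from the value on one array to that on the other; dotted lines mark 1.5-fold. No point lies past 1.5-fold, and the longest lines belong to Nrgn (1.11 and -0.77) and Calm2 (0.83 and -0.52).

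Several members are markers of excitatory neurons, so lists of cell type markers were read on the same arrays; in bulk RNA, fewer cells of a type and less RNA per cell cannot be told apart. Hippocampal excitatory neuron markers, 7 of 9 measured, had a median log2 ratio of 0.02 and none past the size rule. The vesicular glutamate transporter gene Slc17a7 and Prox1, a dentate granule cell marker, were among those above background, while Bok and Dsp were matched by no named probe. Their summed processed intensity was 54437 for ASX and 55260.0 for control RNA on array 1, and 43564 for ASX and 44086 for control RNA on array 2. Striatal projection neurons express several of the members too. Their markers, 8 of 8 measured, had a median of -0.21 and 7 were below 0 on both arrays, as 26.4% of genes with a symbol were. Their summed processed intensity was 18000.0 for ASX and 21397 for control RNA on array 1, and 13663 for ASX and 18322 for control RNA on array 2. The part of striatal tissue in the values of the 8 genes was not tested. Interneuron, astrocyte, oligodendrocyte and microglial markers (6 of 6, 6 of 6, 5 of 5 and 4 of 4 measured) had medians of -0.07, -0.04, -0.06 and -0.08. The 3 choroid plexus markers had a median of -0.07. The 3 pituitary markers were above 0 on both arrays, with a median of 1.29 (Prl and Gh, genes of pituitary hormones, past the size rule). Their summed processed intensity was 1020.0 for ASX and 576 for control RNA on array 1, and 888 for ASX and 472 for control RNA on array 2. The part of pituitary RNA in the values of the 8 genes was not tested.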

How the data were processed

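Agilent Feature Extraction 11.0.1.1 quantified the scans, per the file headers. Among the deposited columns, the median intensity per spot and dye was not normalized and came with a local background. The deposited processed intensity was, per the file headers, corrected for background and dye by the same software. The deposited log10 ratio was processed Cy5 over processed Cy3. The deposited log10 value table gave the same ratio to within 5e-08, not turned for the dye swap. The deposited scanner flags, other values of 0 or 1 with no unit, marked spots well above background.

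Median intensities were corrected with limma 3.58.1 in R 4.3.3 (normexp, offset 50) and normalized by loess (span 0.3) with control spots at weight 0. The 1639 control spots of 45018 and 3 outlier spots were left out. Log2 ratios were turned to ASX over control. RefSeq accessions were named, without versions, through a table of assembly GRCm38.p6: 23372 of 41171 probes matched 1 symbol and 17799 none. The array was designed on another build, so no coordinates are given. A gene took its brightest probe among the 30078 flagged well above background on each array for each RNA, and the ASX RNA passed that flag at 77.8% and 76.7% of spots and the control RNA at 78.2% and 75.8%. An SD between arrays is technical and holds the dye part. Among 200 probes with 10 spots, the median SD over spots of the mean log2 ratio was 0.0363. On simulated signals of 41171 probes, 100 of 100 made 2-fold higher and 100 of 100 made 2-fold lower met the rule. So did 99 of 100 with a 2-fold dye effect. These planted effects lie past the 1.5-fold rule, so their recovery checks the calculation only. Smaller effects, such as the members' mean log2 ratios of -0.24 to 0.17, were not tested this way. Recovery was not tested separately for the brightest probes.

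The members and lists were chosen with earlier results of these data known. Genes were named as all members; from each pathway list those past the size rule and those with the 2 largest absolute means; and the 3 genes nearest to the member with the largest dye part. Some genes that this rule or a marker list holds are not reported here. Both arrays lay on the same slide and were scanned together, per the file headers. Alternatives were other background corrections, scalings, probe choices, size rules and single arrays.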

Additional observations from a re-analysis of the deposited data

How the results depend on the processing

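In the diet direction 0 of the 8 genes met the size rule in all 10 other settings with both arrays. The settings that follow moved a diet ratio by more than the technical spread, which contains the dye part, or a count by over 1.5 times. A dye part was listed where it moved by more than 0.0363, the median SD over spots of probes with 10 spots. The cause was not tested unless stated. Median centring gave medians of -0.16 for the 8 genes and -0.19 for the pathway lists, a median dye part of 0.42 against 0.11, 12 genes lower, 73 apart in the dye direction and 2 members (Nrgn and Calm2) among them. Loess with a span of 0.7 gave a median dye part of 0.21 and 2 such members. The scanner's log ratios and the value table, which hold the same ratios, gave 71 genes higher, 12 lower and 79 in the dye direction, a median dye part of 0.03 and 0 members in the dye direction. An offset of 16 gave 28 higher, and no brightness filter, which adds dim probes, gave 47 in the dye direction. A looser rule of 1.2-fold gave 339 higher, 74 lower, 293 in the dye direction and 2 members there; 2-fold gave 3, 1, 4 and 0. On single arrays, where the dye part is not balanced, the median of the 8 genes ran from -0.09 to 0.14 and that of the pathway lists from -0.05 to -0.01, with 36 to 137 genes higher, 28 to 47 lower and 1 to 2 members past the rule. No paired analysis was possible because the arrays form 1 group and 1 replicate. No depth in counts exists for arrays; the dimmest member probe, a Camk2a probe with a brightness of 7.02, is the least certain.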
